A study of Mus musculus with 4 samples.

Results

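The clustered histone genes of the mouse were taken as the rows of the deposited expression table whose symbol, in a GRCm38 annotation that keeps the older histone names, begins with Hist followed by a cluster number and a histone type. The annotation held 70 such genes, of which 68 were among the 48526 genes of the table. Hist1h2bm and Hist1h2bh were not analysed here. By name, 6 of the 68 are of the linker histone type H1, 20 of H2A, 17 of H2B, 12 of H3 and 13 of H4. Among them Hist1h2aj, Hist1h2al and Hist3h2bb-ps are annotated as pseudogenes. The Hist1 names on chromosome 13 made up 54 of them, the Hist2 names on chromosome 3 made up 10, the Hist3 names on chromosome 11 made up 3, and Hist4h4 lay alone on chromosome 6.

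The study sequenced messenger RNA of lamina propria mononuclear cells, a mixed preparation of immune cells and other cells from the connective tissue under the gut epithelium. In 2 samples, called wild type below, mice had received wild-type CD4 T cells, and the labels record pronounced colitis. In the other 2, called DKO, the transferred CD4 T cells lacked both Hobit and Blimp-1, and the labels record mild colitis. Only the transferred cells carry the deletion, and its part and that of the degree of colitis cannot be told apart. The labels name no strain, sex, age, host genotype or time after transfer, and do not say whether animals were pooled.

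Nucleosomes are built from pairs of the core histones H2A, H2B, H3 and H4, and H1 binds the linker DNA between them. Most clustered histone genes are transcribed in S phase, when newly made DNA is packed into chromatin. Their messages usually carry no poly(A) tail but end just after a short hairpin, the histone stem-loop, which the stem-loop binding protein holds. Some of these genes also give polyadenylated messages that read past the hairpin to a downstream signal, for example in differentiating cells. A library made by an mRNA protocol commonly captures the tailed forms, and the labels do not say whether a poly(A) selection was made here. The levels below therefore need not stand for all histone message in the cells.

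The hairpin is printed for the 4 called genes whose annotated transcript holds it and for Hist3h2ba and Hist1h3e, an H2B gene of high level and the only tested H3 gene, because it is the end at which the tailless message stops. Sequences are from the GENCODE vM21 transcripts of GRCm38, 5′ to 3′, with the 16 bases of the stem and loop in capitals.
Hist1h1c: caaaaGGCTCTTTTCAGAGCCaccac
Hist3h2a: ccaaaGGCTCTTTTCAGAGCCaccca
Hist1h4i: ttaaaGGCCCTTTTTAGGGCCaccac
Hist1h4d: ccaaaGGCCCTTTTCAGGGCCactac
Hist3h2ba: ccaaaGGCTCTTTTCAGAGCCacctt
Hist1h3e: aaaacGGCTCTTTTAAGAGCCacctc

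The motif searched was GG, 3 bases of any kind, TTNTNA, 3 bases of any kind and CC on the transcript strand, kept where the outer 6 bases on each side were fully complementary, with a loop of 4 bases between them. It was found in the longest transcript of 43 of the 68 clustered histone genes (63.2%), against 23 of 21884 other protein-coding genes (0.105%). The stem differed by type. Every match in H1, H2A, H2B and H3 genes had the stem ggctct with agagcc, whereas the H4 matches had ggccct with agggcc in 10 genes and ggtcct with aggacc in 2. A gene model without the motif may end before it, as many models of these genes hold little more than the coding part, and genome sequence beyond the models was not used here.

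The annotated end is printed because it shows where a tailed message could be cut. The last 30 bases of the annotated transcript are given, with the poly(A) signal AATAAA or ATTAAA in capitals. For Hist3h2a the signal starts 34 bases from the end, so the 30 bases printed start there and stop short of the end.
Hist1h1c: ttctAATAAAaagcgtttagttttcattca
Hist3h2a: AATAAAataagagtacgtgtataacataag
Hist1h4i: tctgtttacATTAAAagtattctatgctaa
Hist3h2ba: attAATAAAtttggttcaattttggccaca
Hist2h2be: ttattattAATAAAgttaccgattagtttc
A signal within 40 bases of the annotated end was found in 16 of the 68 genes (23.5%), against 66.8% of other protein-coding genes. The hairpin of Hist1h1c lay 840 bases before its annotated end, that of Hist1h4i 330, that of Hist3h2a 1643, that of Hist1h4d 770 and that of Hist3h2ba 169. Hist1h2bc, whose 2 exons make a transcript of 1156 bases, held neither the hairpin nor a signal in that window.

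Values are rlog, the regularized log2 expression of DESeq2 as the authors deposited it, which pulls differences towards 0, most of all for genes with few reads. The depth of each sample is unknown. Of the 68 genes, 16 had a mean of at least 4 over the 4 samples and were tested, 38 had a mean above 0 and under 4 and are described without a test, 5 had a mean below 0, and 9 were listed at 0 in every sample. The tested genes were 5 of 6 for H1, 1 of 20 for H2A, 5 of 17 for H2B, 1 of 12 for H3 and 4 of 13 for H4. The lowest mean among the tested genes was that of Hist1h4c at 4.04, and the highest below the minimum was that of Hist1h2bg at 3.92.

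Of the 16 tested genes, 5 were lower in DKO (limma, adjusted p under 0.05 over all 13528 genes tested), where 4.85% of all tested genes were lower. They were Hist1h1c, Hist1h2bc, Hist3h2a, Hist1h4i and Hist1h4d. None was higher, where 9.92% of all tested genes were, and 9 of the 16 had an unadjusted p under 0.05. Counts of this last kind, here and below, are given without the share over all tested genes and show no excess. An unadjusted p under 0.05 was common among all genes, as Aurkb with a limma p of 0.0499 had an adjusted p of 0.189. Both DKO samples lay below both wild-type samples for 12 of the 16, where this held for 30.3% of all tested genes, and no tested histone gene showed the opposite, where 25.0% did. The mean was lower in DKO for 15 of the 16, against 55.3% of all tested genes. With the trend on gene length removed it was lower for 10, against 50.7%. The median difference of the 16 in the values as deposited, DKO minus wild type, was -0.32 on the rlog scale, beside -0.02 over all tested genes.

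These counts moved with some choices. With the trend of the difference on gene length removed, 3 of the 16 were called lower (Hist1h1c, Hist1h2bc and Hist3h2a, where 3.99% of all tested genes were). Quantile normalization gave 8 called lower (4.43% of all genes), the other 3 being Hist1h1b, Hist1h1d and Hist1h1e. Without wild type 1 only Hist1h1c and Hist1h2bc were called (3.11% of all genes), and without wild type 2 only Hist1h1c (2.4%). In no setting was a histone gene called higher.

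**Figure D1:**
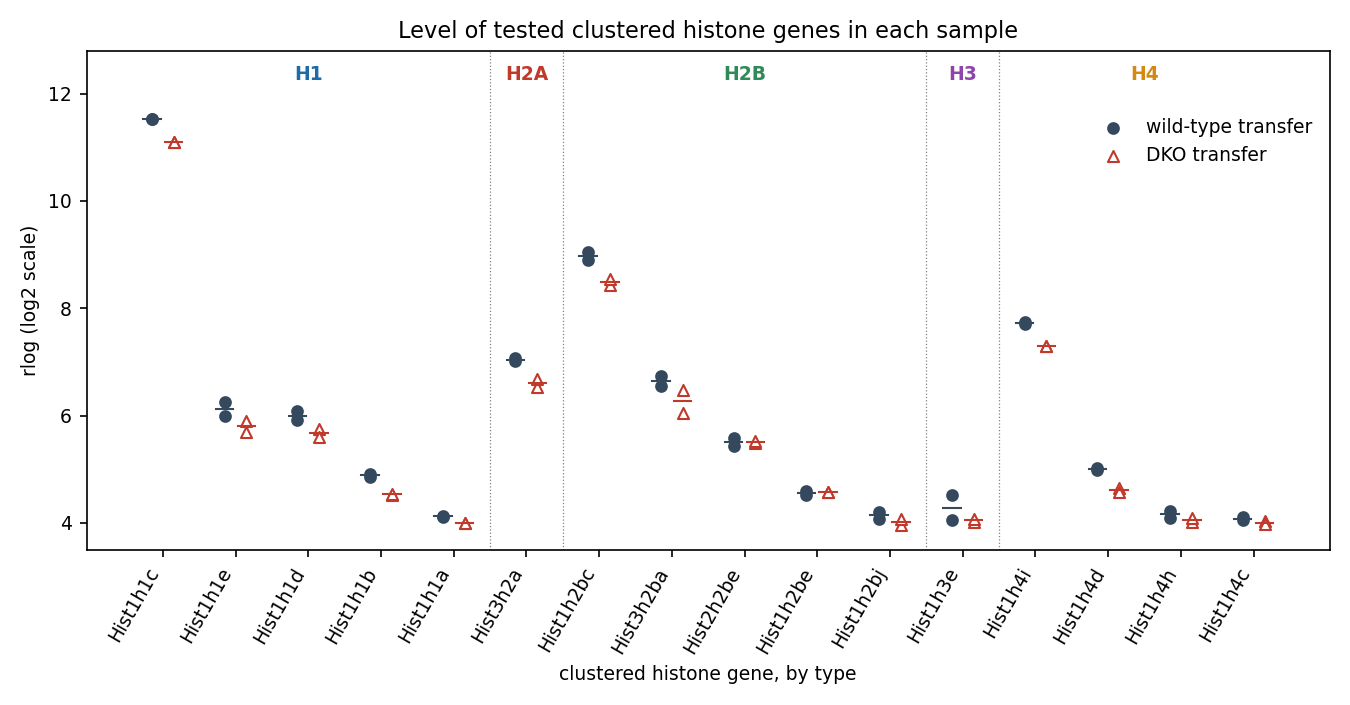
Rlog (log2 scale) of the 16 tested histone genes in each sample, ordered by type and level, with filled circles for the 2 wild-type samples, open triangles for the 2 DKO samples and a short bar for each group mean. The groups stand clearly apart for Hist1h1c, Hist1h2bc, Hist3h2a, Hist1h4i and Hist1h4d, and overlap for Hist2h2be, Hist1h2be, Hist1h2bj and Hist1h3e.

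**Figure D2:**
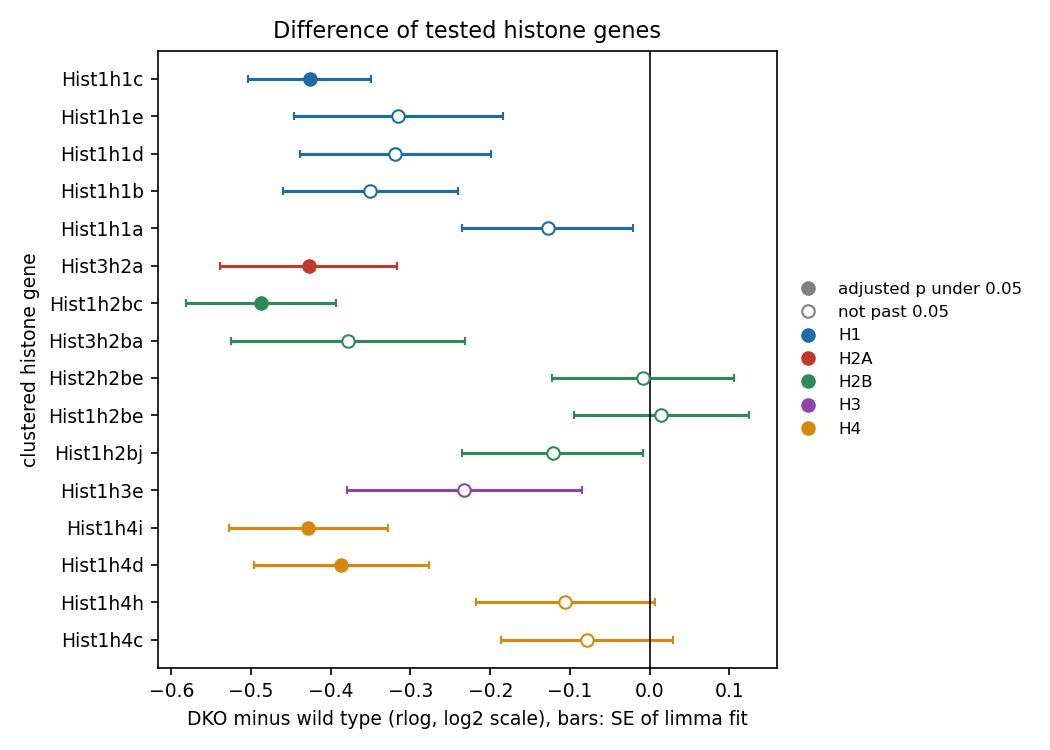
Difference in rlog, DKO minus wild type, of the 16 tested histone genes, with bars for the SE of the limma fit; filled points passed an adjusted p of 0.05. The 5 filled points lie between -0.49 and -0.39, and Hist2h2be and Hist1h2be lie next to 0.

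All 5 tested H1 genes had both DKO samples below both wild-type samples, and 1 of them passed the threshold, where 30.3% of all tested genes did not overlap in that direction and 4.85% were called lower. Hist1h1c (ENSMUSG00000036181, GRCm38 chromosome 13, 23738808 to 23740367, plus strand, a single exon) encodes one of the somatic linker histones. Its values were 11.53 and 11.54 in wild type and 11.10 and 11.11 in DKO. The samples of a group differed by little and the groups were far apart against that spread (mean 11.53 ± 0.0066, SD, n = 2, against 11.10 ± 0.0055). The difference was -0.43 (SE 0.0769, limma adjusted p = 0.0029), or 25.6% lower when converted back from log2. It was the only histone gene called lower under every alternative tried, with adjusted p from 0.0007 to 0.0268 over 12 of them.

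The other somatic H1 genes had the same order of samples but wider spread. Hist1h1b (chromosome 13, 21779883 to 21780625, minus strand) had 4.91 and 4.86 in wild type and 4.52 and 4.55 in DKO, a difference of -0.35 (limma adjusted p = 0.0557). Hist1h1d had 6.08 and 5.92 in wild type and 5.76 and 5.60 in DKO (difference -0.32, limma adjusted p = 0.109). Hist1h1e had 6.25 and 5.99 in wild type and 5.91 and 5.69 in DKO (difference -0.32, limma adjusted p = 0.149). For Hist1h1e the gap between the lower wild-type and the higher DKO sample was smaller than the distance between samples of a group, and for Hist1h1d they were about equal. Exons of Hist1h1e overlap on the same strand with the long annotated transcript of Hist1h2be, so reads could be assigned to either gene. Hist1h1a had 4.14 and 4.11 in wild type and 3.99 and 4.00 in DKO (difference -0.13, limma adjusted p = 0.507; 0.01 with the length trend removed). Both groups were tight. Hist1h1t, the linker histone of the testis, was listed at 0 in every sample. The median difference of the tested H1 genes was -0.32.

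Among H2A genes Hist3h2a was the only one tested. It belongs to the small Hist3 group (ENSMUSG00000078851, chromosome 11, 58954685 to 58956830, plus strand) and encodes a core histone of the H2A type. Its values were 7.02 and 7.07 in wild type and 6.54 and 6.69 in DKO. The groups did not overlap, and the difference of -0.43 (SE 0.111, limma adjusted p = 0.0238) was larger than the distance between samples of a group. The call was lost when either wild-type sample or the first DKO sample was left out (limma adjusted p = 0.0756 without wild type 1, 0.141 without wild type 2 and 0.0850 without DKO 1, in a range of 0.0077 to 0.141 over the alternatives). Exons of Hist3h2a also overlap Trim17 on the same strand, which had rlog values of 0.51 to 0.58, and the antisense gene model Gm44313, which had a mean of -1.97.

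The other H2A genes were low. Of 20 in the table, 10 had a mean between 0 and 4, 5 had a mean below 0 (Hist1h2ah, Hist2h2aa2, Hist1h2af, Hist1h2aj and Hist1h2ao), and 4 were listed at 0 in every sample (Hist1h2aa, Hist1h2al, Hist1h2ap and Hist2h2aa1). Hist2h2ac, of the Hist2 group, had 3.41 and 3.53 in wild type and 3.30 and 3.49 in DKO. Hist1h2ak had 3.24 and 3.10 in wild type and 3.14 and 3.23 in DKO. Neither separated the groups. Hist1h2ae did, with 2.92 and 2.80 in wild type and 2.67 in both DKO samples. Hist1h2al is annotated as a processed pseudogene and lies outside the Hist1 group, at 51202727 to 51203065 of chromosome 13, although its name places it there.

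H2B genes were divided. Hist1h2bc (ENSMUSG00000018102, chromosome 13, 23684199 to 23692908, plus strand, 2 exons) had 8.90 and 9.05 in wild type and 8.44 and 8.55 in DKO. The DKO samples were the lower pair by more than the distance within a group. Its difference of -0.49 (SE 0.0940, limma adjusted p = 0.0044) was the largest among the 16 tested genes in the fit over all 4 samples. Converted back from log2, it was 28.7% lower. Without the second wild-type sample its limma adjusted p was 0.0517, in a range of 0.0004 to 0.0517 over the alternatives.

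Hist3h2ba, the H2B gene of the Hist3 group, had 6.74 and 6.56 in wild type and 6.06 and 6.48 in DKO. One DKO sample was close to the wild-type samples and the other was not, and the difference of -0.38 (SE 0.147) did not pass (limma adjusted p = 0.121). Without the second DKO sample it passed, with a difference of -0.59 (limma adjusted p = 0.0028, the lowest over the alternatives, the highest being 0.555). Hist2h2be had 5.58 and 5.44 in wild type and 5.48 and 5.52 in DKO (difference -0.01, SE 0.115, limma adjusted p = 0.979). Hist1h2be had 4.60 and 4.52 in wild type and 4.58 and 4.57 in DKO (difference 0.01, SE 0.110, limma adjusted p = 0.959). In both genes the DKO values lay inside the range of the wild-type samples. Hist1h2bj had 4.21 and 4.07 in wild type and 3.97 and 4.07 in DKO (difference -0.12, limma adjusted p = 0.558), and its groups overlapped. With the length trend removed the differences of Hist2h2be and Hist1h2bj were 0.04 each, and with quantile normalization that of Hist1h2be was -0.09.

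H3 had a single tested gene. Hist1h3e (chromosome 13, 23561534 to 23562369, minus strand) had 4.52 and 4.05 in wild type and 4.02 and 4.08 in DKO. The first wild-type sample stood above the other 3, and the difference of -0.23 (SE 0.147, limma adjusted p = 0.360) rested on it, being 0.0008 without that sample. Hist1h3c, under the minimum, had 3.83 and 3.80 in wild type and 3.68 and 3.71 in DKO. Hist1h3a had 3.64 and 3.74 in wild type and 3.59 and 3.55 in DKO. Both H3 genes had their DKO samples below their wild-type samples, by gaps of rlog that are small and untested.

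Among H4 genes 4 were tested and 2 passed the threshold, both lower in DKO, where 4.85% of all tested genes were. Hist1h4i (ENSMUSG00000060639, chromosome 13, 22040636 to 22041362, minus strand, a single exon) had 7.74 and 7.71 in wild type and 7.30 in both DKO samples. As for Hist1h1c, the spread within a group was small beside the difference, which was -0.43 (SE 0.0999, limma adjusted p = 0.0136). Converted back from log2, this was 25.7% lower. The call was lost without either wild-type sample (limma adjusted p = 0.0858 without wild type 1 and 0.0658 without wild type 2) and with the trend of the difference on gene length removed (0.0950, the highest over the alternatives, the lowest being 0.0078).

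Hist1h4d (ENSMUSG00000061482, chromosome 13, 23581598 to 23582735, plus strand, a single exon) had 4.98 and 5.02 in wild type and 4.64 and 4.59 in DKO. The pairs were well separated, with a difference of -0.39 (SE 0.110, limma adjusted p = 0.0372). This was the least stable of the 5 calls. It was lost without wild type 1 (limma adjusted p = 0.132), without wild type 2 (0.209), without DKO 2 (0.0637), with every gene above 0 tested (0.0529) and with the length trend removed (0.151), in a range of 0.0089 to 0.209 over the alternatives. Hist1h4h had 4.22 and 4.09 in wild type and 4.01 and 4.09 in DKO (difference -0.11, limma adjusted p = 0.616), where the lower wild-type value exceeded the higher DKO value only beyond the second decimal. Hist1h4c had 4.05 and 4.11 in wild type and 4.03 and 3.97 in DKO (difference -0.08, limma adjusted p = 0.715). With the length trend removed the differences of Hist1h4h and Hist1h4c were 0.05 and 0.06.

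The 38 genes with a mean above 0 and under 4 had small differences, and how much of this is the shrinkage of rlog was not tested. Their differences lay between -0.22, in Hist1h4f, and 0.09, in Hist1h4m, with a median of -0.05. The mean was lower in DKO for 30 of the 38, beside 42.0% of all genes in that range of levels, and both DKO samples were below both wild-type samples for 14, beside 18.2%. Hist1h4k was the only one with both DKO samples above both wild-type samples, where 24.9% of all genes in that range were. Hist1h4f had 3.31 and 3.19 in wild type and 3.01 and 3.06 in DKO. Hist1h4k had 2.22 and 2.26 in wild type and 2.39 and 2.28 in DKO. By type, the mean was lower for 8 of 10 H2A genes, 6 of 9 H2B genes, 9 of 10 H3 genes and 7 of 9 H4 genes in that range. Many of these genes share sequence, so their values are not independent of one another.

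**Figure D3:**
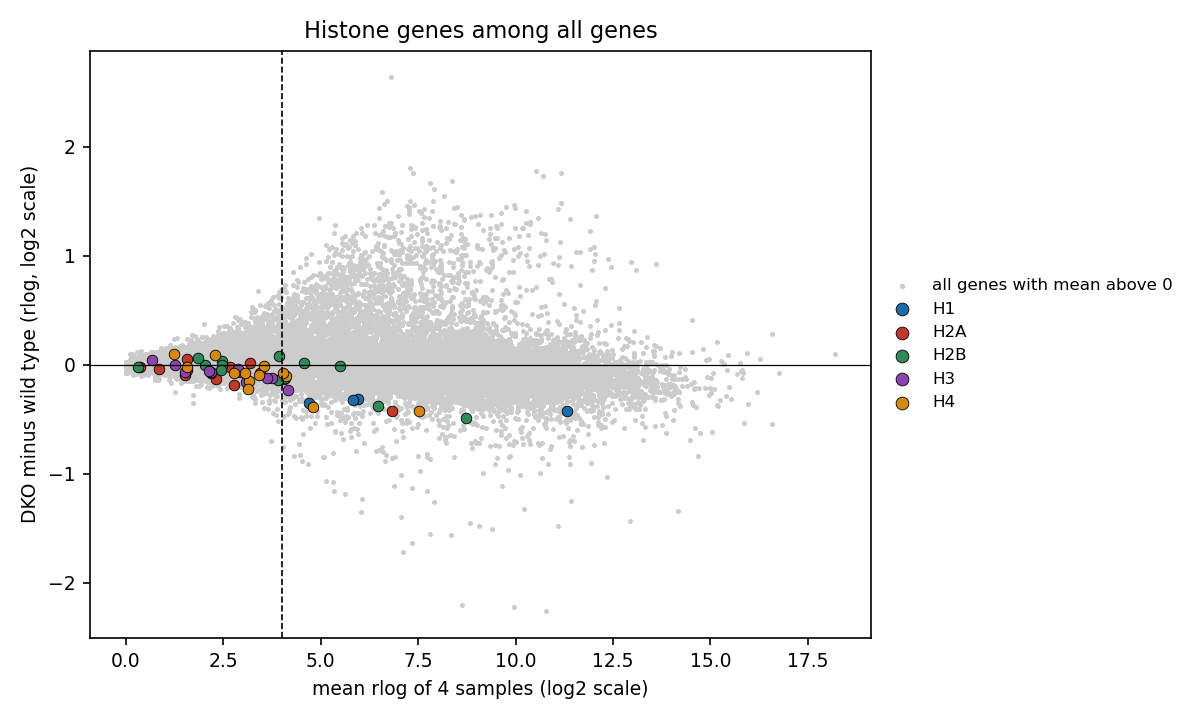
Difference in rlog, DKO minus wild type, against the mean rlog of the 4 samples for all genes with a mean above 0 (grey) and for the 54 histone genes among them (coloured by type); the dashed line marks the minimum of 4 for testing. Differences of the histone genes stay near 0 at low levels. Right of the line 15 of the 16 lie below 0, beside 55.3% of all tested genes. With the trend on gene length removed (not drawn) 10 do, beside 50.7%.

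To compare levels between genes, rlog was corrected for length by subtracting the log2 of the exon length in kilobases. On this scale Hist1h1c stood highest at 10.68, followed by Hist1h2bc at 8.53, Hist1h4i at 7.97 and Hist3h2ba at 7.16. Hist3h2a followed at 5.73, then Hist1h4h and Hist1h2bj at 5.19. The leading genes were thus an H1, a pair of H2B, an H4 and an H2A gene, and no H3 gene was among them. The highest H3 genes were Hist1h3a at 4.54 and Hist1h3e at 4.43. Among H2A genes Hist1h2ak followed Hist3h2a at 4.53. The median over genes with a mean above 0 was 5.01 for H1, 2.87 for H2A, 3.71 for H2B, 2.84 for H3 and 4.06 for H4. The core histones are needed in equal amounts in the nucleosome, and the levels seen in these libraries were unequal between types and between genes of a type.

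The transcript ends differed between tested and untested genes. A poly(A) signal near the annotated end was found in 7 of the 16 tested genes (43.8%), in 6 of the 38 under the minimum (15.8%), in 0 of the 5 with a mean below 0 and in 3 of the 9 listed at 0. Among genes with the hairpin, the annotated transcript went on for more than 100 bases after it in 10 of 12 tested genes and in 10 of 25 under the minimum. The minimum was set on rlog not corrected for length, and such an extension makes a model longer. This contrast is therefore not independent of transcript length. Of the 7 tested genes with a signal, 3 were called lower in DKO (Hist1h1c, Hist3h2a and Hist1h4i), and of the 9 without, 2 were (Hist1h2bc and Hist1h4d), beside 4.85% of all tested genes. The median differences of these sets were -0.38 and -0.32. Hist2h2be and Hist1h2be, the pair of tested genes with differences next to 0, both had a signal. These shares describe the gene models, and which ends were present in the libraries was not measured.

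**Figure D4:**
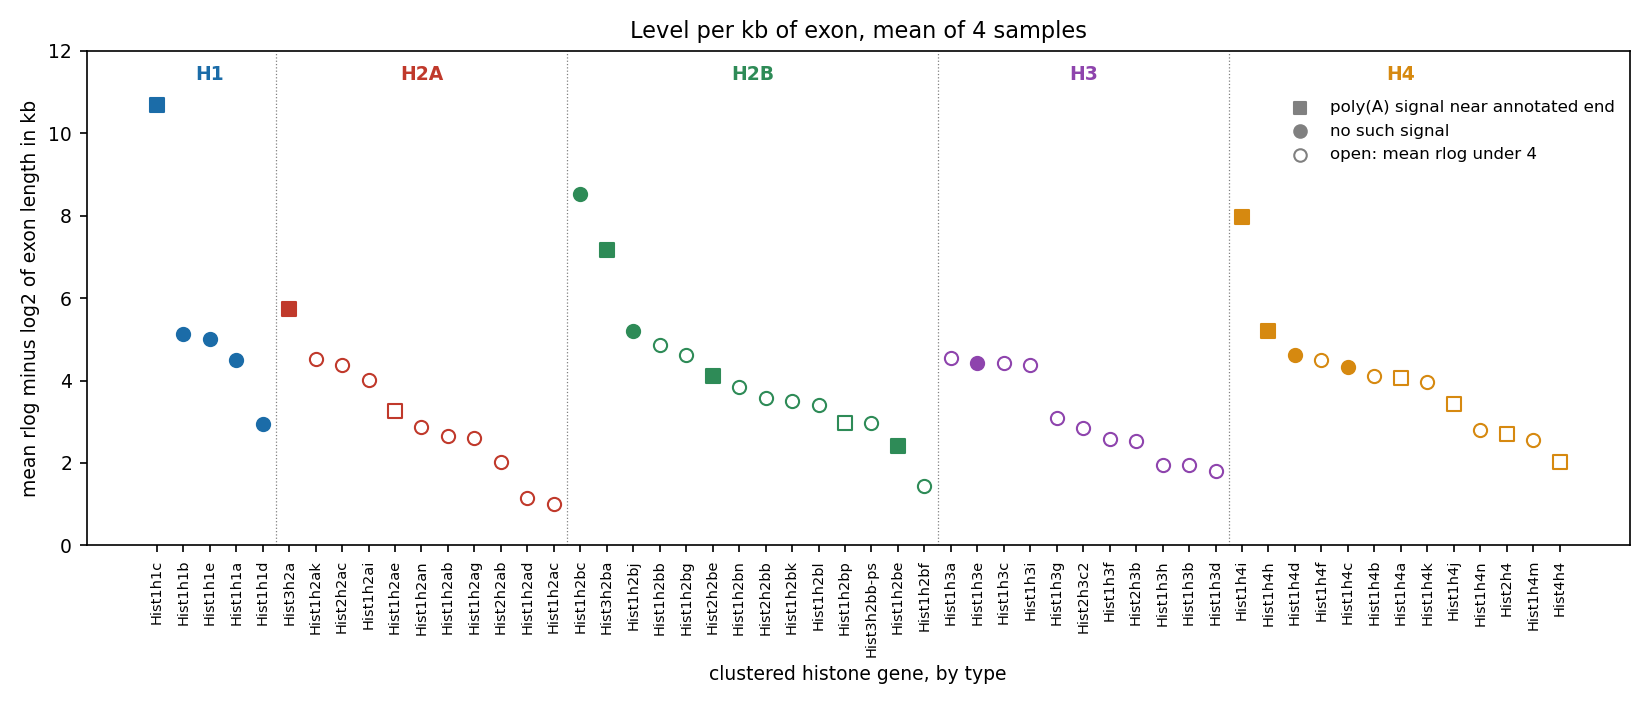
Mean rlog minus log2 of exon length in kilobases for the 54 histone genes with a mean above 0, by type; squares mark genes with a poly(A) signal near the annotated end, circles those without, and open symbols genes with a mean rlog under 4. Hist1h1c, Hist1h2bc, Hist1h4i and Hist3h2ba stand above the rest, and 3 of these 4 are squares.

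Copies of these genes are so alike that reads can fit several of them. Over the 68 genes, the median share of 50-base windows of a transcript that also occurred in a transcript of another gene was 51.0%. Gene models that overlap on the same strand count as other genes, as for Hist3h2a with Trim17 and Hist1h1e with Hist1h2be. Part of a share can therefore be overlap at 1 place and not likeness of copies. It was 1.13% for H1, 73.2% for H2A, 49.7% for H2B, 62.0% for H3 and 39.5% for H4. Of the 20 genes with at least 75% of windows shared, 0 reached a mean rlog of 4 and 10 were at or below 0, and the highest mean was 3.08. Of the 48 genes below that share, 16 reached 4 and 4 were at or below 0. The limit of 75% was chosen after the values were seen. The sources used here give neither the read length nor how reads that fit several genes were handled, so a low value of an H2A or H3 gene with near-identical copies cannot be told apart from reads that were not assigned. Among the called genes the share was 8.54% for Hist1h1c, 10.2% for Hist1h4d, 28.9% for Hist1h4i, 30.1% for Hist1h2bc and 31.5% for Hist3h2a, whereas it was 73.4% for Hist1h3e.

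**Figure D5:**
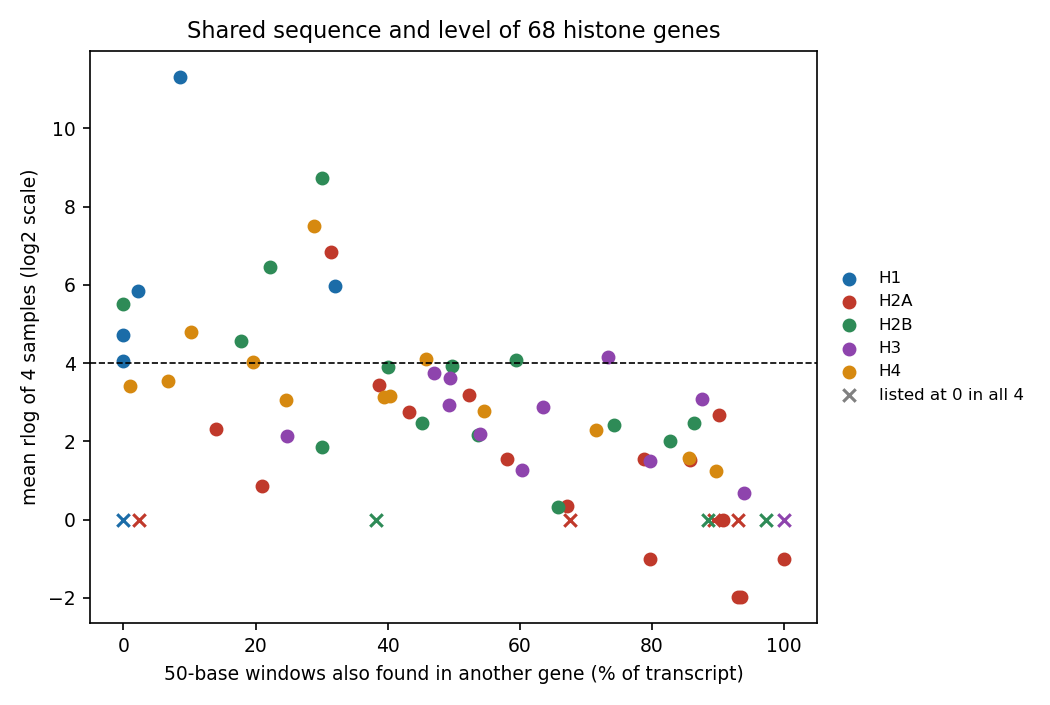
Mean rlog of the 4 samples against the percent of 50-base windows of the longest transcript that also occur in another gene's transcript, for all 68 histone genes by type; crosses mark genes listed at 0 in every sample and the dashed line marks a mean of 4. No gene with at least 75% of windows shared lies above the line, and the H1 genes lie in the left part of the plot.

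Promoters of the clustered histone genes carry short elements known for their type. They were searched on both strands in windows from 250 bases before to 50 after the start in RefSeq (GRCm38.p6), which matched 59 of the 68 genes and 14 of the 16 tested (not Hist1h2bc or Hist2h2be). CCAAT was found in 50 of the 59 (84.7%), against 37.4% of 32851 promoters of all genes. It was found in all 6 H1, 17 H2A, 14 H2B and 10 H3 promoters but in 3 of 12 H4 promoters. TATAAA was found in 35 of 59 (59.3%, against 13.6%). ATTTGCAT, the octamer, was found in 7 of 17 H2A and 5 of 14 H2B promoters and in no H1, H3 or H4 promoter (20.3% of the 59, against 1.74%). Windows of neighbouring H2A and H2B genes can overlap, so the same site can count for both types. This held for the octamer of Hist1h2ah and Hist1h2bk and that of Hist1h2ae and Hist1h2bg. AAACACA, an element of H1 promoters, was found in 5 of 6 H1 promoters and in 8 of the 59 (13.6%, against 7.18%). None of these motifs contains another, on either strand. A match is a run of letters and not a shown binding site.

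The 250 bases before the start are printed for called genes of 3 types, to show where the matches lie. The part of these elements in the lower values was not tested. The matches are in capitals, and a match on the other strand reads ATTGG for CCAAT and ATGCAAAT for the octamer.
Hist1h1c (chr13:23738557-23738806, plus strand): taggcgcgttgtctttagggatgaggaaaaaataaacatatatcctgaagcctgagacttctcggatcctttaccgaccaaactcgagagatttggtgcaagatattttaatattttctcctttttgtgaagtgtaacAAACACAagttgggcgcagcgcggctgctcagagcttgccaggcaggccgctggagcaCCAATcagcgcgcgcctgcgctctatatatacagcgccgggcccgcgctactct
Hist3h2a (chr11:58954435-58954684, plus strand): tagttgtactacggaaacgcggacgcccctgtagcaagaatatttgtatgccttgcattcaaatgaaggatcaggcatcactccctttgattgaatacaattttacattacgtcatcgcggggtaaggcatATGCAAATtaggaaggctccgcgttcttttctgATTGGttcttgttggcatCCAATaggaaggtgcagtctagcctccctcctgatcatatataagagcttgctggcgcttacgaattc
Hist1h4i (chr13:22041363-22041612, minus strand): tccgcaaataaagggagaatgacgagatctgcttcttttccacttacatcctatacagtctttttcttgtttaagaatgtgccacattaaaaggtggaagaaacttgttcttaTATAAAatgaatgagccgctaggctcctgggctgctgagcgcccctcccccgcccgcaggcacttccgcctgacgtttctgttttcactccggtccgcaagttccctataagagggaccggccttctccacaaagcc
Hist1h1c held AAACACA and CCAAT, Hist3h2a held the octamer and CCAAT on both strands, and Hist1h4i held TATAAA and no CCAAT. The other called H4 gene, Hist1h4d, held CCAAT and TATAAA in its window. Of the 14 tested genes with a window, 12 held CCAAT.

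Histone variants encoded outside the clusters, many of which are made throughout the cell cycle and give polyadenylated messages, were also read. Of 14 listed variants 11 were tested, 3 were called lower in DKO and 0 higher, where 4.85% of all tested genes were lower and 9.92% higher, and their median difference was -0.19. Both counts moved when single samples were left out. H1f0, a linker histone of cells that have stopped dividing, had 11.16 and 11.10 in wild type and 10.73 and 10.80 in DKO (difference -0.36, SE 0.0783, limma adjusted p = 0.0086; 0.0827 without wild type 1, the highest over the alternatives, the lowest being 0.0016). The difference was close in size to that of Hist1h1c. H2afj had 9.84 and 9.96 in wild type and 9.33 and 9.63 in DKO (difference -0.42, limma adjusted p = 0.0198). H3f3a, which encodes a replacement H3 histone, had 10.75 and 10.89 in wild type and 10.56 and 10.46 in DKO (difference -0.31, limma adjusted p = 0.0285). Both calls were lost without wild type 2 (limma adjusted p = 0.110 for H2afj and 0.295 for H3f3a, the highest over the alternatives, the lowest being 4.9e-05 and 0.0058). That of H2afj was also lost without DKO 1 (0.0619). H2afb1 and H1fnt, genes of the testis, were listed at 0.

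Genes that act on histone messages were not called in the fit over all 4 samples. Of 22 genes of their transcription and 3′ end processing, 20 were tested with limma and 0 were called in either direction. An unadjusted p under 0.05 was found for 2, a count not set against all tested genes, and the median difference was -0.01. Lsm10, a protein of the U7 particle that cuts histone messages, had 7.57 and 7.46 in wild type and 7.25 and 7.20 in DKO (difference -0.29, limma adjusted p = 0.0983, with a range of 0.0461 to 0.427 over the alternatives). Clp1, a factor of message cleavage, had a difference of -0.20 (limma adjusted p = 0.155) and Pcf11 one of 0.14 (limma adjusted p = 0.386). Of 23 histone chaperones and assembly factors 0 were called and 2 had an unadjusted p under 0.05 in limma, with a median of -0.04. The smallest p were those of Nap1l4 (difference 0.21, limma adjusted p = 0.122), Ipo4 (0.25, adjusted p = 0.134) and Asf1b (-0.21, adjusted p = 0.225). Nap1l4 and Asf1b passed in some alternatives. With single samples left out, the difference lay between 0.17 and 0.24 for Nap1l4 and between -0.32 and -0.099 for Asf1b.

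Genes of the cell cycle were given beside the histone genes, since clustered histone genes are transcribed in S phase. Of 26 genes of S phase and DNA replication 0 were called by limma. An unadjusted p under 0.05 was found for 4, a count not set against all tested genes. The mean was lower in DKO for 23 of them, beside the 55.3% of all tested genes, and their median difference was -0.11. Ccne1, the cyclin of S phase entry, had 7.96 and 7.91 in wild type and 7.50 and 7.72 in DKO (difference -0.33, limma adjusted p = 0.0702). Tk1 had a difference of -0.28 (limma adjusted p = 0.100) and Rrm2 one of -0.21 (limma adjusted p = 0.140). Of 20 genes listed under mitosis 1 was called lower, a share close to the 4.85% of all tested genes. The mean was lower for 19, beside 55.3% of all tested genes, and the median was -0.19. That list includes Ccna2, whose cyclin also acts in S phase. The called gene was Ccna2, with 10.49 and 10.39 in wild type and 10.01 and 10.24 in DKO (difference -0.32, limma adjusted p = 0.0424), and 0 genes were called without wild type 1, wild type 2 or DKO 1. Birc5 (-0.31, limma adjusted p = 0.0507) and Ccnb1 (-0.29, limma adjusted p = 0.0737) did not pass. These counts depended on the second DKO sample: without it 7 genes of S phase and 9 of mitosis were called lower, where 9.03% of all tested genes were. The part of the cell cycle genes in the lower histone values was not tested.

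Small nuclear, nucleolar and other RNAs that carry no poly(A) tail were given for comparison. Of 20 listed, 6 were tested, 0 were called by limma in either direction, 0 had an unadjusted p under 0.05 and the median difference was 0.08. The count called higher moved when single samples were left out. The summed level of these RNAs, as log2, was 9.48 and 9.23 in wild type and 9.59 and 9.18 in DKO, and Scarna10 and Snora65 were listed at 0. The spread within each group exceeded the difference between groups. Snord104, the member with the smallest p, had a difference of -0.14 (limma adjusted p = 0.499), and Snora57 and Snora73b had 0.08 each (limma adjusted p = 0.723 and 0.734).

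The preparations also differed in cell types. In the fit over all 4 samples, 4.85% of all tested genes were called lower in DKO and 9.92% higher. Neutrophil markers were called lower in DKO for 14 of 14 genes, with a median of -1.39. With a robust variance estimate 9 were, where 5.46% of all tested genes were. Their summed level, as log2, was 15.89 and 15.97 in wild type and 14.78 and 14.32 in DKO. Monocyte and macrophage markers had lower means for 11 of 11 and were called for 9 (14.97 and 14.95 against 14.40 and 14.56). That count fell when wild type 1 was left out. Fibroblast and smooth muscle markers were called higher for 10 of 10 (15.03 and 14.91 against 16.00 and 15.84), as were endothelial markers for 8 of 8 (11.51 and 11.32 against 12.31 and 12.41). No T cell marker was called of 10 in limma, with 4 at an unadjusted p under 0.05. Their median was -0.14, with sums of 15.17 and 15.24 in wild type and at most 15.12 in DKO. None of 8 epithelial markers was called, with 1 at an unadjusted p under 0.05. Both lists gave calls of lower genes when a single DKO sample was left out. Of 8 erythroid and megakaryocyte markers 5 were tested, with a median difference of 0.08. Pf4 was called lower, while Hbb-bs, Alas2, Hba-a1 and Hba-a2 had higher means in DKO and were not called. Of 8 B and plasma cell markers 2 were tested. Sdc1 was called lower and Cd79b was not (difference 0.05), while Pax5, a transcription factor of B cells, was listed at 0. The part of these cell types in the lower histone values was not tested, and in such mixed samples fewer cells of a type and less RNA per cell cannot be told apart. Zfp683, which encodes Hobit, had 3.53 and 3.81 in wild type and 3.29 and 3.38 in DKO, and Prdm1, which encodes Blimp-1, had 11.53 and 11.43 against 11.37 and 11.43 (limma adjusted p = 0.617), with labels placing the deletion in the transferred cells only.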

How the data were processed

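RNA of lamina propria mononuclear cells from 4 mouse samples was made into stranded mRNA libraries, per the labels' protocols. The authors deposited 1 table of log2 values, called rlog in its name, which is the regularized log transform of DESeq2, a tool named in the submitters' processing notes. Per those notes, GRCm38, STAR 2.5.4a, featureCounts of Subread 1.5.2, cutadapt 1.9.1, bcl2fastq 2.17.1.14 and BWA 0.7.14-r1136 were also used; for their roles, settings, strand option and annotation, nothing is given in the sources read. Depth is unknown, so no counting interval is given. A further 2 columns fit no label and were left unused, although the shrinkage may rest on them too.

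Of 48526 genes, 48144 were matched to a GENCODE vM21 symbol and 23340 were 0 in all 4 samples. Genes whose rlog averaged at least 4, 13528 in all, were fitted with limma 3.58.1 in R 4.3.3, with group as the only term, a variance trend, two-sided tests and Benjamini-Hochberg adjustment over all of them (prior degrees of freedom 8.90, residual 2). The fit was tested on simulated data. Tables and figures were made with Python 3.11.15, pandas 2.3.3 and matplotlib 3.10.9. Groups came from the treatment in the labels. Each group has 2 replicates called biological, but no label ties them to different animals; p-values thus cover no more than the spread among these 4 samples. Replicate numbers follow the order of the entries.

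The members and lists were chosen with earlier results of these data known. Named in each type were up to 6 tested genes of smallest p, the 2 of highest rlog and the 2 of highest rlog per kilobase, and up to 3 genes of smallest p in each other list; marker lists are given mostly as counts, and 1 marker is not reported here. Hist1h2ae, Hist1h4f, Hist1h4k and Hist1h4m were chosen after their values were seen. The alternatives were no minimum, a minimum of 6, no variance trend, a robust variance, median centring, quantile normalization, sample weights, removal of the trend of the difference on gene length (lowess, span 0.3) and leaving out each sample. Summed levels are the log2 of the sum of 2 to the power of rlog.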

Additional observations from a re-analysis of the deposited data

How the results depend on the processing

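Hist1h1c was lower in DKO with an adjusted p under 0.05 in all 12 alternatives, and no histone gene was called higher in any. The count of histone genes called lower was 8 with quantile normalization, 3 with the length trend removed, and between 1 and 5 when samples were left out in turn. The median difference of the tested histone genes was -0.072 with no minimum, where mostly low genes enter, -0.43 with a minimum of 6, -0.40 with quantile normalization, -0.22 with the length trend removed, and between -0.39 and -0.21 without single samples. That of H1 was -0.45 with quantile normalization. That of H2A was -0.053 with no minimum and -0.53 with quantile normalization. That of H2B was -0.013 with no minimum, -0.43 with a minimum of 6, -0.22 with quantile normalization and 0.031, of the other sign, with the length trend removed. That of H3, which is Hist1h3e alone, was between -0.47 and 0.00080 without single samples, the last without wild type 1. That of H4 was -0.079 with no minimum, -0.43 with a minimum of 6, -0.34 with quantile normalization, -0.11 with the length trend removed, and between -0.27 and -0.25 without single samples. Among single genes the sign changed with the length trend removed for Hist1h1a (0.014), Hist2h2be (0.044), Hist1h2bj (0.038), Hist1h4h (0.054) and Hist1h4c (0.057), and with quantile normalization for Hist1h2be (-0.091), Snora57 (-0.017) and Snora73b (-0.029). It also changed when single samples were left out for Hist2h2be (range -0.082 to 0.065), Hist1h2be (-0.021 to 0.050), Hist1h3e (-0.47 to 0.00080), Snora73b (-0.00022 to 0.15), Hist2h2ac (-0.17 to 0.021) and Hist1h2ak (-0.058 to 0.089). Beyond the smaller number of samples and the different genes tested, the cause of these changes was not tested.

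No paired analysis was possible because the labels give no replicate numbers shared between groups. With 2 samples in each group and a fit that pools the spread, a group left with 1 sample is assumed to vary like the other. Depth is unknown and rlog shrinks low genes, so a small difference in a gene under 4 does not bound the true one. The alternatives for the other lists, and for genes under the minimum, were chosen after seeing the data.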
